A study of Mus musculus with 8 samples.

Results

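CCl4 added to a western diet was examined here in mouse liver, as 1 western diet + CCl4 library set against 2 western diet + oil libraries. The unit is FPKM, in which fragments are scaled by transcript length and by the library's mapped total, so that levels of different genes can be compared per length. Members are the genes that reached 1 FPKM in any of these 3 libraries. They number 11580 of the 55487 genes in the deposited table. Highest values just inside this limit were 1.0014 for S100g, 1.0020 for Gm7935 and 1.0021 for Taf9, and just outside it 0.9999 for Ppm1h, 0.9998 for Morn1 and 0.9992 for Pcna-ps2. All libraries came from liver of male wild-type C57BL/6N mice. The western diet joined a high-fat diet to drinking water with 23.1 g/L fructose and 18.9 g/L glucose, while the normal diet was chow with tap water. Either CCl4 or its corn oil vehicle went into the peritoneum once a week. A further 5 libraries of the series, 3 of normal diet + oil and 2 of normal diet + CCl4, were used for reference. The dose of CCl4, the weeks of treatment and the age of the mice are not given in the sources used here, and nothing there says that libraries of a group came from separate animals.

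CCl4 harms liver after its conversion to a radical, which is the work of Cyp2e1 in the hepatocytes around the central vein, so that injury is centred on this pericentral zone. Injured or inflamed liver makes acute phase proteins, which hepatocytes release into the blood under the control of cytokines such as interleukin-6, and neutrophils can enter the tissue from the blood. A western diet fills hepatocytes with triglyceride made by lipogenic enzymes and stored in lipid droplets.

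The 3 libraries leave 1 residual degree of freedom, which comes from the 2 oil libraries alone, so genes were called by a fixed size and not by a test. A gene was called higher when its log2(FPKM + 1) in the western diet + CCl4 library lay at least 1, or 2-fold, above the higher of the 2 oil libraries, and lower when it lay at least 1 below the lower of them. This scale understates the change of genes at low FPKM. Of the 11580 members 128 were called higher (1.11%) and 111 lower (0.959%). By any amount, 3085 members lay above both oil libraries (26.6%), 4279 below both (37.0%) and 4216 between or level with them. The median difference of all members was -0.03 on log2(FPKM + 1). As the only replicate spread on this diet, the 2 oil libraries differed from each other by at least 2-fold in 288 members (2.49%), with a median absolute difference of 0.23. Among the 128 genes called higher, 38 were listed at 0 in both oil libraries and are called by the construction of the rule, and 12 of the 111 called lower were listed at 0 in the CCl4 library. Protein-coding genes made up 113 of the higher and 90 of the lower calls.

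**Figure D1:**
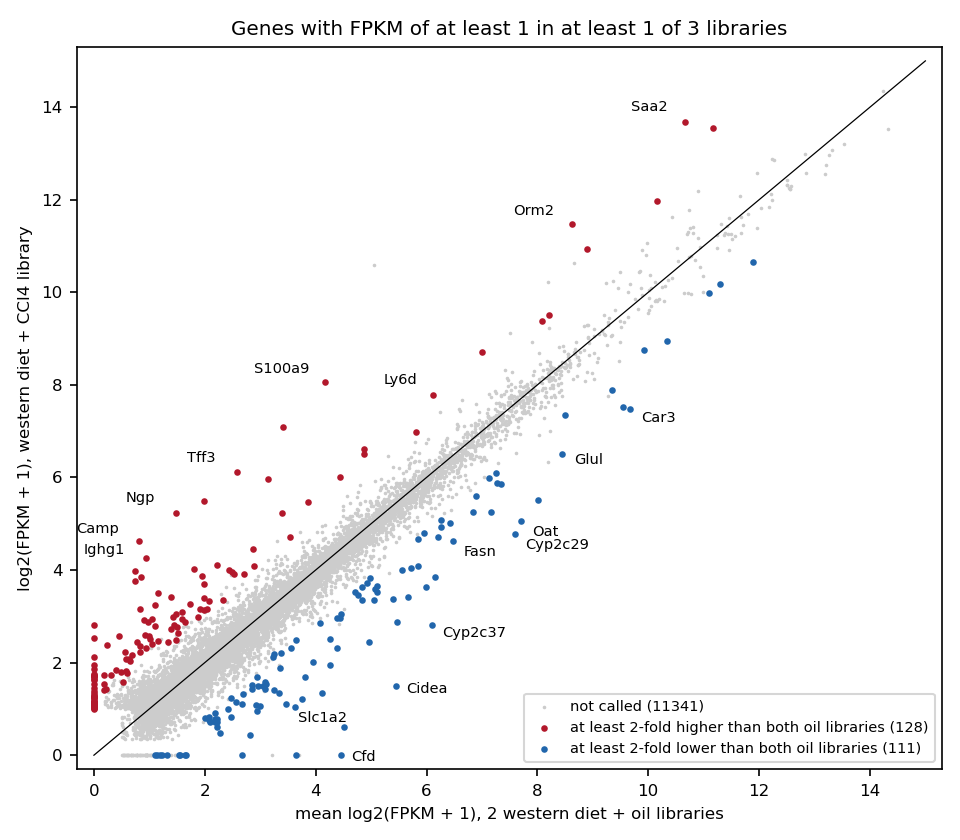
Each point is 1 of 11580 genes, with the mean log2(FPKM + 1) of the 2 western diet + oil libraries on the x axis and the value of the western diet + CCl4 library on the y axis. Red points (128) lie at least 2-fold above both oil libraries, blue points (111) at least 2-fold below both, and the line marks equal values, and granule and acute phase genes such as S100a9, Orm2 and Saa2 stand above it while Cfd, Cidea and Cyp2c37 stand below it.

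The FPKM of a library summed to between 514832 and 612747, and between 12531 and 14843 genes were above 0. No counts were used here, and the depth of a library is therefore unknown. The hepatocyte markers Alb, Apoa1, Ttr and Hnf4a summed to 34502 and 26819 FPKM in the 2 oil libraries and 32412 in the CCl4 library. Markers of adipose tissue (Adipoq, Plin1, Lep) and of skeletal muscle (Acta1, Ckm, Myh4) were listed at 0 in all 8 libraries. Sums for red cells (Hba-a1, Hbb-bs) were 518 and 310.4 FPKM with oil and 397 with CCl4. Those for exocrine pancreas were 13.9 and 16.2 against 17.3. The major urinary protein (Mup) family took 9.16% and 10.04% of the FPKM sum with oil and 8.22% with CCl4, so its share differed little on the western diet. In normal diet libraries that share ran from 16.9% to 32.5% with oil and was 2.80% and 4.65% with CCl4. Single Mup genes on the western diet differed more than the share. Of 21 Mup members 5 were called lower and 1 higher, and 14 lay below both oil libraries, with a median of -0.35. Mup6 stood at 313 and 209 against 44.8 FPKM, and Mup12, the 1 called higher, at 1045 and 1258 against 4049. FPKM is a share of the library, and the median difference of the same 11580 genes on the normal diet was 0.26. Median-of-ratios scaling, which centres the typical gene of each library, brought the median of the genes tested there to 0.00.

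Neutrophil granule genes were the group that stood furthest above the oil libraries. Of 16 genes listed for neutrophils and calprotectin 13 were members, of which 10 were called higher, 0 lower and 3 not called, and 12 of the 13 lay above both oil libraries. Their median difference was 2.12 on log2(FPKM + 1), against -0.03 for all members. Only 1 of the 10, the collagenase Mmp8, was listed at 0 in both oil libraries, and no further gene of the list passed 2-fold against either oil library alone. The 3 genes that missed the FPKM limit, Cxcr2, Ly6g and Il1r2, stood at 0.839, 0.965 and 0.772 FPKM in the CCl4 library.

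S100a9 and S100a8 encode the subunits of calprotectin, the calcium-binding protein that fills the neutrophil cytosol. S100a9 (chr3:90692632-90695721 on GRCm38, minus strand) stood at 12.4 and 23.0 FPKM in the oil libraries and at 267 in the CCl4 library. On the normal diet S100a9 was 2.96, 5.27 and 1.32 FPKM with oil and 3.91 and 3.63 with CCl4. The western diet + CCl4 library thus held 11.6 times the level of the nearest oil library, and the 2 normal diet groups overlapped. S100a8 stood at 6.71 and 13.5 FPKM with oil and 135 with CCl4, a ratio of 9.98 to the nearest.

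Genes of the secondary and tertiary granules, which are made in maturing neutrophils of the marrow, showed the same order of libraries. Camp, the cathelicidin antimicrobial peptide, was listed at 0 in all 5 normal diet libraries, at 0.370 and 1.23 FPKM with western diet + oil and at 23.8 with western diet + CCl4. Ngp, neutrophilic granule protein, was likewise at 0 in the 5 normal diet libraries and went from 0.756 and 3.41 to 36.7 FPKM. Ltf, the iron-binding lactotransferrin, stood at 0.342 and 1.09 against 12.6 FPKM. Retnlg, a resistin-like protein of neutrophils, stood at 0.597 and 1.04 against 13.4 FPKM, and the 5 normal diet libraries held between 0 and 0.381. For each of these 4 genes the single CCl4 library on the western diet was the highest of all 8. Of the primary granule genes, which mark earlier precursors, Elane (neutrophil elastase) stood at 0 and 0.886 against 4.97 FPKM, and Mpo (myeloperoxidase) at 0 and 1.16 against 3.7. Elane, like Mmp8, is a member through the CCl4 library alone. Prtn3 (proteinase 3), which was not on the list, stood at 9.80 and 6.16 against 61.7 FPKM and is a further primary granule protease. Prtn3 (chr10:79874476-79883174 on GRCm38) neighbours Cfd, which lay lower.

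A sum over the list without Hp and Lcn2, which hepatocytes make as well, was 23.5 and 48.3 FPKM in the oil libraries and 506 in the CCl4 library, while the 5 normal diet libraries lay between 2.1 and 9.49. Csf3r, the receptor for granulocyte colony-stimulating factor, did not move with the granule genes, at 1.88 and 2.09 against 1.74 FPKM. In RNA from whole tissue, more cells of a type and more RNA per cell cannot be told apart. Red cell markers summed to 518 and 310.4 FPKM with oil and 397 with CCl4, and the blood held in each sample was not measured. Whether neutrophils in the vessels or in the tissue gave the signal was not tested.

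**Figure D2:**
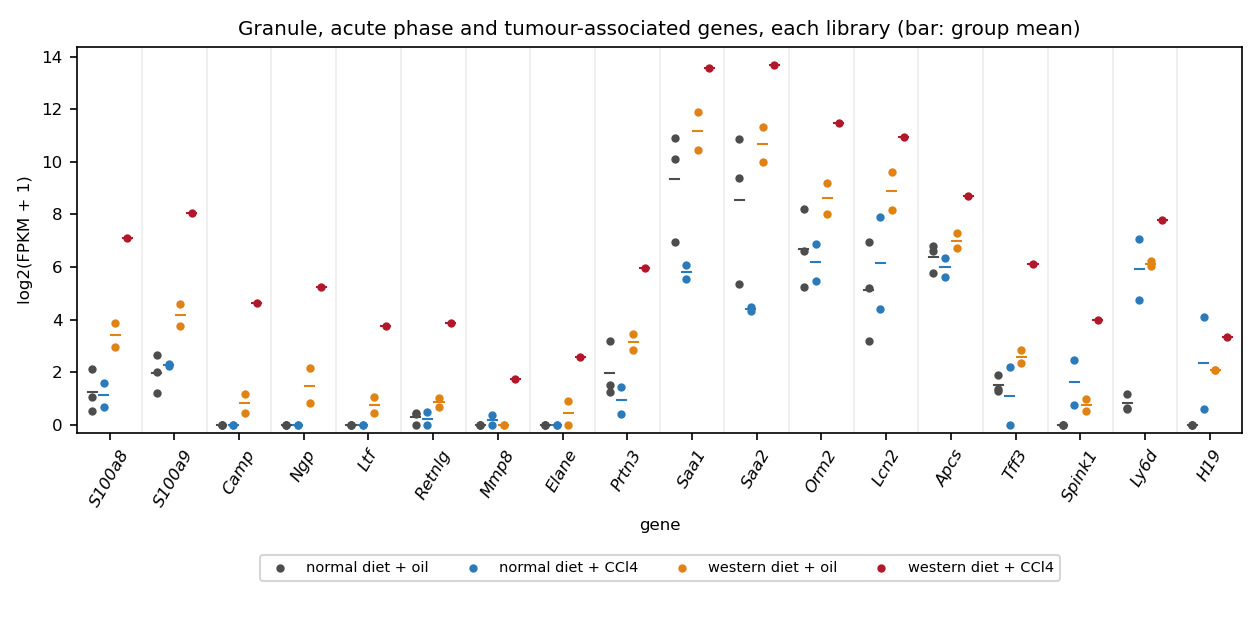
Log2(FPKM + 1) of 18 genes (x axis) in each of the 8 libraries, as points coloured by group, with a bar at the group mean. In the western diet + CCl4 library (red, 1 point per gene) S100a8, S100a9, Camp, Ngp, Ltf and Retnlg lie above every other library, whereas H19 is exceeded by a normal diet + CCl4 library.

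Acute phase genes were higher as well. All 29 listed genes were members, of which 6 were called higher (Saa2, Orm2, Saa1, Apcs, Lcn2 and Serpina3n), 0 lower and 23 not called, and 23 of the 29 lay above both oil libraries. Against either oil library alone 10 were at least 2-fold higher. The median difference was 0.78, and on the normal diet the same 29 genes had a median of -0.20. Their summed level was 21796 and 29426 FPKM with western diet + oil and 65645 with western diet + CCl4, and between 14754 and 23972 in the 5 normal diet libraries.

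Serum amyloid A, an apolipoprotein of high-density lipoprotein in the acute phase, gave the largest levels. Saa2 stood at 1022 and 2589 FPKM with oil and at 13185 with CCl4, and Saa1 at 1384 and 3828 with oil and 12024 with CCl4. Both were lower in the normal diet + CCl4 libraries, where Saa2 was 21.2 and 19.2 FPKM and Saa1 65.7 and 46.2. Normal diet + oil libraries spread widely, from 39.9 to 1874 FPKM for Saa2 and from 123 to 1923 for Saa1. Saa1 and Saa2 are near-identical neighbours whose fragments can be exchanged in counting, so the values of each are uncertain while their joint direction is not affected by an exchange between them. Saa3 and Saa4, the other members of the family, stood at 14.2 and 38.7 against 22.3 FPKM and at 141 and 202 against 319.9 FPKM and were not called.

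Orm2, an orosomucoid that binds drugs in plasma, stood at 259 and 590.4 FPKM with oil and at 2855 with CCl4, 4.84 times the nearest oil library. Lcn2, a lipocalin that withholds iron from bacteria and is made by both hepatocytes and neutrophils, stood at 284 and 786 against 1961 FPKM. Apcs, serum amyloid P component, stood at 156 and 104 against 417 FPKM. The fibrinogen chains lay just under the limit and were not called, with Fga at 1583 and 1185 against 3161 FPKM, Fgb at 1023 and 866 against 1924 and Fgg at 1914 and 1536 against 3538. Hamp2, a hepcidin, was the acute phase gene furthest below both oil libraries, at 18.5 and 16 against 8.83 FPKM. The 2 oil libraries themselves differed by more than 2-fold for Saa1, Saa2, Orm2 and Lcn2, library 2 being the higher each time.

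Promoters of 6 of these genes are shown because they share 1 motif. They are the 250 bases before the annotated start of RefSeq on GRCm38.p6, written 5′ to 3′ on the strand of the gene, and capitals mark matches to the C/EBP motif TTGCNNAA on either strand. C/EBP factors are liver and myeloid transcription factors with a known role in acute phase and granule genes.
Saa1, chr7:46742981-46743230, minus strand: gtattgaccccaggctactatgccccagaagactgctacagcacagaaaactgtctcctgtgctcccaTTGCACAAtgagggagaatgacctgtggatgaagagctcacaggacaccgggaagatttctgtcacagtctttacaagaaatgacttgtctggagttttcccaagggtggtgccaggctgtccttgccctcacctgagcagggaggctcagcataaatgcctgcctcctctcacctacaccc
Saa2, chr7:46751583-46751832, plus strand: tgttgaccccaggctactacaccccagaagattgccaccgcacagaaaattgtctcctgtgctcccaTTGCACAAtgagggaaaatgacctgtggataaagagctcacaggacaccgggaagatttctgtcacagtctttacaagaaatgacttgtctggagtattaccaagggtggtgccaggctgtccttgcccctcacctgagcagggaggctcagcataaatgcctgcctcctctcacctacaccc
Orm2, chr4:63362199-63362448, plus strand: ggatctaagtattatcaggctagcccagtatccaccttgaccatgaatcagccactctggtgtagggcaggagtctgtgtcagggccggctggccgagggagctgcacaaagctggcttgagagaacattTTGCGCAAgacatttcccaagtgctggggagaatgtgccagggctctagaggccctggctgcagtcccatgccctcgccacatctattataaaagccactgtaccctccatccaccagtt
Lcn2, chr2:32387740-32387989, minus strand: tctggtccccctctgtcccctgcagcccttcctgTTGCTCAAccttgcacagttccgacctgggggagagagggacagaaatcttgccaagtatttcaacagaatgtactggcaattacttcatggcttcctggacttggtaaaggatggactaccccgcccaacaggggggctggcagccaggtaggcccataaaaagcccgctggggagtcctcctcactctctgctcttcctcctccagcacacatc
S100a9, chr3:90695722-90695971, minus strand: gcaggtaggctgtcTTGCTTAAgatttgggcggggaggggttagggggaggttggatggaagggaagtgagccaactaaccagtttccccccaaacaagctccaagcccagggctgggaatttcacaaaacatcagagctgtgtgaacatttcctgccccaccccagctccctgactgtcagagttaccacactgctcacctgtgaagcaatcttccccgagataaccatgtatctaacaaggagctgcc
Ngp, chr9:110419558-110419807, plus strand: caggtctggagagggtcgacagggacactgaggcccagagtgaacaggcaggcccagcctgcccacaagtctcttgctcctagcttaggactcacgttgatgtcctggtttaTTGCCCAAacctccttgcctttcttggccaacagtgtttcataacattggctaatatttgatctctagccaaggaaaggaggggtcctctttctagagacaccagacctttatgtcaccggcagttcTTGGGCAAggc

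Counted from the start, the match begins at base -182 in Saa1, -183 in Saa2, -120 in Orm2 (a palindrome that matches both strands), -216 in Lcn2 and -236 in S100a9. Ngp holds a match at -138 on the gene's strand and another at -11 on the other strand. Saa1 and Saa2 are no independent examples, as 95.3% of the aligned columns of their promoter windows are identical (287 of 301). In windows from 250 bases before to 50 after the start, 4 of the 6 acute phase genes called higher and 6 of the 10 neutrophil genes held TTGCNNAA, Lcn2 being in both lists. Among all genes called higher 24.7% held it (77 of 128 had a promoter in the table), against 11.7% of those called lower (77 of 111), 9.05% of all members (8269 had one) and 10.8% of all 27025 promoters. A further 6 motifs were searched on both strands. STAT (TTCNNNGAA) stood in 11.7% of the called-higher promoters and 6.78% of all members, NF-kB (GGNNTTTCC) in 6.49% and 5.89%, TCF/LEF (CTTTGAT) in 1.30% and 2.50% and CCAAT in 35.1% and 38.9%. An HNF1 core (GTTAAT) stood in 3.90% of the called-higher, 14.3% of the called-lower and 4.50% of all member promoters, and a sterol response element (TCACNCCAC) in 0%, 1.30% and 1.15%. Motifs were counted independently of each other, so matches of different motifs may overlap. A match describes letters in a window, and binding was not measured.

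Genes that the liver expresses in fetal life or in tumours formed the third group with many higher calls. Of 22 such genes 13 were members, of which 7 were called higher and 0 lower, and 11 lay above both oil libraries. The median difference was 1.08 with the western diet and 1.10 with the normal diet. Without the FPKM limit the western diet median was 0.81 over the 18 listed genes above 0 in any of the 3 libraries. Over the 4 that reached 5 FPKM it was 1.67. Tff3, a trefoil peptide of mucous epithelia, stood at 6.17 and 4.05 FPKM with oil and 68.5 with CCl4, where the 5 normal diet libraries lay between 0 and 3.56. Ly6d, a surface protein of the Ly6 family, stood at 64.3 and 73.3 against 220.005 FPKM, at 0.553, 1.27 and 0.528 with normal diet + oil and at 132 and 26.1 with normal diet + CCl4. CCl4 libraries thus lay above the oil libraries of the same diet for Ly6d, and western diet + oil lay above normal diet + oil. Cdh1 (E-cadherin) stood at 1.33 and 0.973 against 5.89 FPKM, and H19, an imprinted fetal non-coding RNA, at 3.17 and 3.24 against 9.08. On the normal diet H19 was listed at 0 in each oil library and at 16.2 and 0.506 FPKM with CCl4. Golm1 stood at 0.563 and 0.415 against 2.54 FPKM. Igdcc4 and Akr1c18 were listed at 0 in both oil libraries and at 2.13 and 1.11 FPKM with CCl4. Golm1, Igdcc4 and Akr1c18 are members, and so could be called, through the CCl4 library alone. Afp, alpha-fetoprotein, did not reach the FPKM limit, at 0.798 and 0.718 against 0.975, and Igf2, Dlk1, Lin28b and Igf2bp3 were listed at 0 in all 3 libraries.

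Outside the lists, Spink1, a secreted trypsin inhibitor, stood at 0.422 and 0.955 FPKM with oil and 14.8 with CCl4, through which alone it is a member. On the normal diet it was listed at 0 in each oil library and stood at 4.56 and 0.671 FPKM after CCl4. Of the Ly6 family on chromosome 15, chosen after its values were seen, 7 genes were members and 4 were called higher, 0 lower. Besides Ly6d these were Ly6e at 275 and 313 against 729 FPKM, the monocyte marker Ly6c2 at 0.805 and 0.984 against 5.02 and Ly6a2 at 0 and 0.285 against 2.32. Ly6c2 and Ly6a2 are members, and so could be called, through the CCl4 library alone. Eif4ebp3, a repressor of cap-dependent translation, stood at 1.32 and 5.71 against 44.0 FPKM, and at 7.06, 5.26 and 12.7 with normal diet + oil against 53.8 and 56.9 with normal diet + CCl4. It overlaps another annotated gene on its strand, and its fragments may be shared with it. Some of the 15 largest decreases were outside the lists too. Adgrv1 stood at 6.42 and 20.2 against 0 FPKM and Ppp1r3g at 9.63 and 13.2 against 1.05. Rgs16 stood at 30.1 and 61.6 against 6.30 FPKM. Dpm1, which also overlaps a gene on its strand, stood at 17.3 and 19.2 against 2.84 FPKM.

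Immunoglobulin constant region genes differed by class. Ighg1, the constant region of IgG1, stood at 1.38 and 0.545 FPKM with oil and at 18 with CCl4, and was between 0 and 0.907 in the 5 normal diet libraries. Ighg2c stood at 5.86 and 1.20 against 13.7 FPKM, and Ighm, the constant region of IgM, lay lower at 28.2 and 26.9 against 11.5. Of 12 members among 22 genes for B cells and immunoglobulin, 2 were called higher and 1 lower, and 10 lay above both oil libraries. Defining B cell markers were near 0, with Cd79a and Ms4a1 together at 0.61 and 0.90 FPKM with oil and 0.62 with CCl4. Jchain, which joins IgM and IgA, stood at 2.75 and 2.34 against 3.14 FPKM.

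Macrophage genes split. None of the 22 listed genes of resident Kupffer cells lay above both oil libraries, 17 lay below both and 5 between. Of these, 3 were called lower and 0 higher, with a median difference of -0.54. Marco, a scavenger receptor of Kupffer cells, stood at 35.1 and 70.0 FPKM with oil and 9.70 with CCl4. Timd4, which binds dying cells, stood at 5.11 and 8.65 against 0.935 FPKM, and Cd163, the haptoglobin-haemoglobin receptor, at 2.45 and 1.92 against 0. General macrophage genes moved little from the lower oil library, such as Adgre1 at 5.53 and 10.7 against 5.09 FPKM and C1qa at 116 and 251 against 112. Oil library 2 held the higher level of the listed genes except Cd163, and the sum of 5 Kupffer cell markers (Adgre1, Clec4f, Vsig4, Timd4, Marco) was 127 and 229.95 FPKM with oil and 76.3 with CCl4. Against library 1 alone 3 of the 22 genes lay at least 2-fold lower, and against library 2 alone 10, and the median was -0.09 and -0.93. On the normal diet the same list had a median difference of 1.03.

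In the list for monocyte-derived and lipid-associated macrophages, 4 of 27 members were called higher and 1 lower, with a median of -0.14. Chil3, a chitinase-like protein of monocytes and neutrophils, stood at 1.04 and 1.46 FPKM with oil and 10.4 with CCl4. Cd63, a lysosomal tetraspanin, stood at 17.2 and 25.0 against 63.4 FPKM, and Fabp5, a fatty acid binding protein, at 35.7 and 22.3 against 89.5. Mmp12, a macrophage elastase, was the gene called lower, at 4.30 and 5.66 against 1.23 FPKM. Trem2, a lipid receptor of these macrophages, lay between the oil libraries at 4.80 FPKM against 3.14 and 9.27, and Cd68 stood at 21.5 and 33.9 against 15. Ccl2, the chemokine that draws monocytes, stood at 3.66 and 3.97 FPKM with oil and 0.392 with CCl4, the 1 gene called lower of 21 chemokine and inflammation members. Cxcl14 was the 1 called higher there, at 1.44 and 1.84 against 9.70 FPKM.

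Pericentral genes were among the groups that lay lower. Of 28 members 5 were called lower and 0 higher, 17 lay below both oil libraries and 5 above both, and the median difference was -0.49. Against oil library 1 alone 5 were at least 2-fold lower, and against library 2 alone 10 lower and 2 higher. Glul (glutamine synthetase), which is confined to hepatocytes beside the central vein, stood at 352 and 339.8 FPKM with oil and 90.0 with CCl4. On the normal diet Glul was 200.07, 221 and 174 FPKM with oil and 42.9 and 72.3 with CCl4. Slc1a2, the glutamate transporter of the same cells, stood at 13 and 12.1 against 1.32 FPKM, and on the normal diet at 12.9, 12 and 11.4 against 0.301 and 1.67. Oat, ornithine aminotransferase, stood at 267 and 163 against 32.1 FPKM, and on the normal diet at 198, 214 and 98.1 against 18.9 and 93.2. The CCl4 libraries lay below all oil libraries of their diet for these 3 genes. Cyp2e1 lay below both oil libraries without reaching the 2-fold limit, at 1887 and 2159.6 against 1032 FPKM. Over the 22 listed genes that reached 5 FPKM the median was -0.70. Not every pericentral gene lay lower, and Cyp7a1 stood at 12.3 and 8.96 against 12.8 FPKM. Axin2, a target of Wnt signalling, did not reach the FPKM limit, at 0.684 and 0.311 against 0.960.

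Xenobiotic P450 genes lay lower mainly through the Cyp2c cluster. Among 32 members of the P450 list 8 were called lower and 2 higher, with 17 below both oil libraries and a median of -0.42. That median was -0.25 against oil library 1 alone and -0.67 against library 2 alone. Cyp2c37 (chr19:39992424-40012243 on GRCm38) stood at 78.6 and 58.3 FPKM with oil and 6.05 with CCl4, and on the normal diet at 106, 81.2 and 112 against 7.53 and 22. Cyp2c29 stood at 225 and 165 against 26.3 FPKM, Cyp2c50 at 135 and 148 against 37.0 and Cyp2c38 at 15.6 and 17.2 against 1.52. Together with Cyp2c54, at 35.0 and 31.9 against 10.5 FPKM, these make 5 of the 11 Cyp2c members on chromosome 19, a family chosen after its values were seen, and 9 of the 11 lay below both oil libraries. Nr1i3, the receptor CAR that drives drug metabolism genes, stood at 26.9 and 39.5 against 11 FPKM, and its partner Nr1i2 (PXR) lay between the oil libraries at 21.9. Cyp3a11 stood at 337 and 389 against 163 FPKM. The 2 genes called higher were Cyp3a41a and Cyp3a41b, near-identical female-biased copies listed at 0 in both oil libraries and at 2.09 and 2.21 FPKM with CCl4, whose fragments cannot be assigned to 1 copy with certainty. Cyp2b9 stood at 6.46 and 5.57 against 0.359 FPKM.

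**Figure D3:**
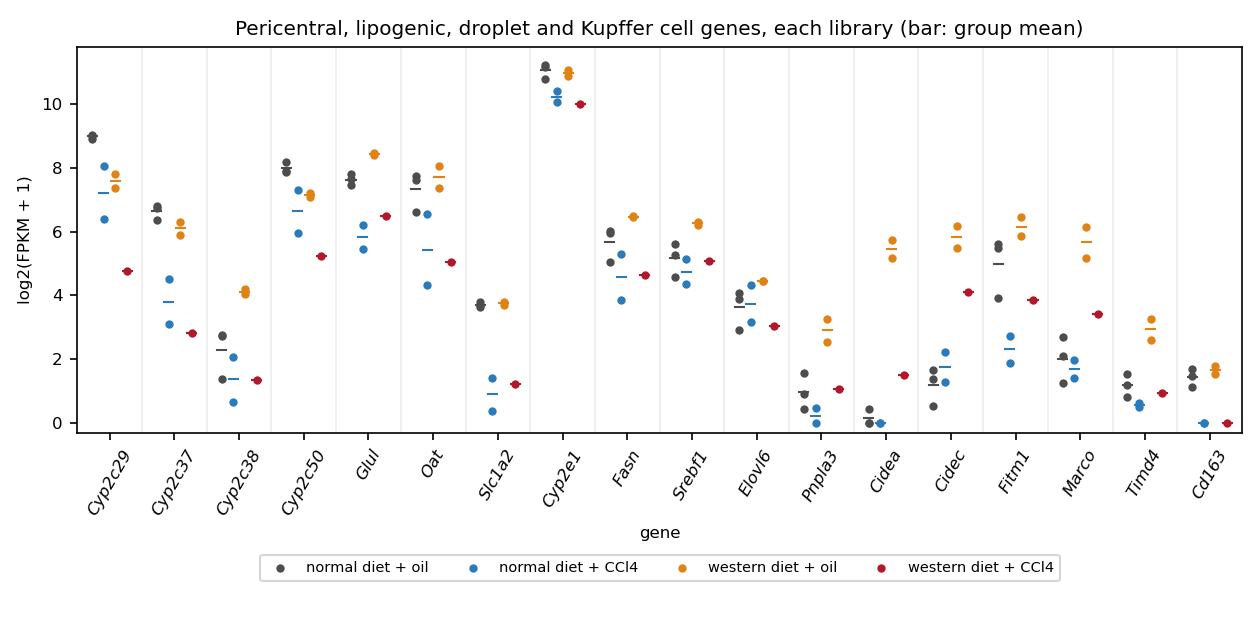
Log2(FPKM + 1) of 18 genes (x axis) in each of the 8 libraries, as points coloured by group, with a bar at the group mean. For Glul, Slc1a2 and Cyp2c37 both CCl4 groups lie below the oil libraries of their diet, while Cidea and Cidec are high only in the libraries of western diet + oil and, for Cidec, western diet + CCl4.

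De novo lipogenesis lay lower across the pathway. Of 31 members 8 were called lower and 0 higher, and 25 lay below both oil libraries, with a median of -0.48. Srebf1, the transcription factor that switches on lipogenic genes, stood at 73.4 and 78.3 FPKM with oil and 32.9 with CCl4. Fasn, fatty acid synthase, stood at 88.3 and 87.4 against 23.7 FPKM. Elovl6, which elongates its product, stood at 20.7 and 21.1 against 7.28 FPKM, and Me1, which supplies NADPH, at 62.5 and 50.9 against 24.6. Pnpla3, a lipid droplet hydrolase and Srebf1 target, stood at 8.68 and 4.88 against 1.11 FPKM. Scd1, the stearoyl-CoA desaturase, stood below both but within the limit, at 3487 and 2243 against 1937 FPKM. Of 31 genes of glucose and insulin 23 lay below both oil libraries, with 0 called higher. Mir6921, listed at 4.2 and 6.78 against 0 FPKM, lies within Srebf1 on the same strand, so its fragments cannot be told apart from those of Srebf1.

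Lipid droplet and fatty acid uptake genes were mixed, with 5 of 27 members called lower and 1 higher, 14 below both oil libraries and 9 above both. The median was -0.14, and it was -0.08 against oil library 1 alone and -0.20 against library 2 alone. Cidea, which enlarges lipid droplets, stood at 34.9 and 52.4 FPKM with western diet + oil and 1.81 with western diet + CCl4, and between 0 and 0.344 in the 5 normal diet libraries. Cfd, complement factor D or adipsin (chr10:79890853-79892655 on GRCm38), stood at 23.3 and 18.8 FPKM with oil and was listed at 0 with CCl4, and was between 0 and 0.811 on the normal diet. The western diet + CCl4 library thus lay within the normal diet libraries for Cfd and above all 5 of them for Cidea. Cidec, a related droplet protein, stood at 44.1 and 71.5 against 16.1 FPKM, Fitm1 at 57.6 and 86.4 against 13.5, and the droplet coat protein Plin4 at 9.45 and 9.38 against 3.63. Plin2, the general droplet coat, lay between the oil libraries at 228 FPKM against 277 and 227. Cfd, Cidea and Car3, the last at 879.5 and 763 against 177 FPKM, are the 3 genes called lower among 5 members of an adipose list, and adipocyte-defining Adipoq, Plin1 and Lep were listed at 0 in every library, Fabp4 lying between the oil libraries at 38.5 FPKM.

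Fatty acid oxidation and PPAR-alpha targets had 2 of 41 members called lower, 0 higher and 23 below both, with a median of -0.17. Cyp4a14, an omega-hydroxylase, stood at 88.8 and 44.1 FPKM with oil and 11.4 with CCl4, whereas on the normal diet it stood at 6.85, 3.95 and 0.718 with oil and 51.1 and 63.7 with CCl4. Acaa1b, a peroxisomal thiolase, stood at 878 and 1083 against 430.1 FPKM. Cholesterol genes went in both directions. Of 34 members 2 were called higher, 2 lower and 30 not, with a median of 0.05. Sqle (squalene epoxidase) stood at 4.88 and 1.09 against 15.1 FPKM and Idi1 at 6.43 and 3.20 against 14.4. Abcg5 and Abcg8, the subunits of the sterol exporter into bile, stood at 51.4 and 52.0 against 15.5 FPKM and at 34.4 and 32.6 against 11.7. These neighbours overlap in the annotation on opposite strands. Bile acid genes had 1 of 31 called higher and 3 lower, the 3 being this pair and the exporter Abcc3 at 23.6 and 29.2 against 9.94 FPKM.

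Immediate early genes, which answer stimuli within minutes, also lay lower. Of 18 members 5 were called lower and 0 higher, 13 lay below both oil libraries, and the median was -0.64. Against oil library 1 alone 5 were at least 2-fold lower and 1 higher, with a median of -0.53, and against library 2 alone 9 were lower and 1 higher, with a median of -0.96. Jun stood at 13.9 and 28.2 against 3.97 FPKM, Egr1 at 6.29 and 11.5 against 1.65, Fos at 3.07 and 4.07 against 0.724, Dusp1 at 16.9 and 25.4 against 6.77 and Nr4a1 at 3.56 and 2.88 against 0.766. Of the heat shock chaperones, a family chosen after its values were seen, all 7 members lay below both oil libraries and 2 were called lower. These were Hspa1a at 3.60 and 3.71 against 0.729 FPKM and Hspa1b at 6.62 and 8.11 against 1.81. Gdf15, a stress-induced cytokine, was the only call among 17 p53 target members, at 22 and 40.9 against 4.44 FPKM, and Cdkn1a lay between the oil libraries at 13.2.

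Endothelial, stellate, MHC class II and T and NK cell markers lay lower with few or no calls. Of 26 endothelial members 21 lay below both oil libraries and 1 above, with a median of -0.50, and only Plvap, a protein of fenestral diaphragms, was called, at 25.8 and 33.4 against 12.3 FPKM. The 5 endothelial markers Pecam1, Stab2, Clec4g, Lyve1 and Kdr summed to 46.9 and 46.7 FPKM with oil and 26.4 with CCl4. Of 9 MHC class II members 8 lay below both and 0 above (median -0.45), and of 5 T and NK cell members 4 lay below both and 0 above (median -0.69), with 0 calls in either list. These 5 are the members among 25 listed T and NK cell genes, and 0 of the 25 reached 5 FPKM. Without the FPKM limit the T and NK cell median was -0.30 over 17 genes. Against oil library 1 alone the MHC class II median was -0.19, and against library 2 alone it was -0.81 and that of T and NK cells -1.15. Stellate cell and myofibroblast genes had 2 of 19 called lower and 0 higher (median -0.42), the 2 being Tpm2 at 7.62 and 13.2 against 1.15 FPKM and Ecm1 at 61.2 and 86.8 against 25.3. Collagen and other matrix genes had 1 of 33 called higher (Lum), 1 lower (Mmp12), and a median of -0.25. Against oil library 1 alone these 2 medians were -0.16 and -0.11. Without the FPKM limit they were -0.21 over 23 stellate genes and -0.25 over 39 matrix genes. Over the genes that reached 5 FPKM they were -0.16 (9 genes) and -0.50 (18 genes). Col1a1, the main fibrillar collagen, lay between the oil libraries at 3.30 FPKM against 2.42 and 4.06, and so did Acta2, the smooth muscle actin of myofibroblasts, at 1.01 against 0.956 and 1.76, and Timp1 at 1.31 against 1.01 and 3.25. Col3a1 stood at 7.20 and 10.6 against 5.96 FPKM. In contrast, the matrix list had a median of 1.05 on the normal diet, where Col1a1 was 16.4 and 1.77 FPKM with CCl4, so the 2 libraries there stood far apart.

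Ductular markers of low level lay above the oil libraries. Of 12 cholangiocyte members 10 lay above both oil libraries and 2 were called higher (Onecut1 and Anxa13), with a median of 0.70. Without the FPKM limit the median was 0.45 over the 19 listed genes above 0 in any of the 3 libraries. Over the 4 that reached 5 FPKM it was -0.11. Onecut1 stood at 0.486 and 0.333 against 2.47 FPKM, and Anxa13 at 0 and 0.542 against 2.33. Both are members, and so could be called, through the CCl4 library alone. Krt19, Krt7, Epcam and Sox9 summed to 1.97 and 2.39 FPKM with oil and 4.09 with CCl4. The interferon response had 1 of 39 called higher, Ubd at 8.19 and 11.1 against 36.7 FPKM, with 21 above both and a median of 0.21. Complement and coagulation genes had 22 of 37 above both, a median of 0.25 and 1 call, the lower Cfd. Cell cycle genes showed 0 calls among 21 members and a median of 0.02, with Mki67 at 0.520 and 0.294 against 0.713 FPKM. Without the FPKM limit the cell cycle median was 0.27 over 35 genes, and over the 5 that reached 5 FPKM it was -0.06. NRF2 and glutathione genes had 2 of 42 called higher (Gpx2 and Cbr3), 2 lower (Abcc3 and Me1), and a median of -0.18, with Nqo1 at 4.83 and 5.01 against 4.61 FPKM and Gstm3 at 44.4 and 59.0 against 79.1. ER stress genes had 1 of 29 called higher, Asns at 1.35 and 0.558 against 3.99 FPKM.

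Sex-biased liver genes went both ways. Male-biased genes had 2 of 27 called higher and 3 lower (median 0.01). Moxd1 was listed at 0 in both oil libraries and at 6.08 FPKM with CCl4, and Selenbp2 stood at 26.0 and 30.7 against 96.3, while Elovl3 stood at 48.7 and 21.2 against 9.18. Female-biased genes had 5 of 21 called higher, 4 of them at 0 in both oil libraries, and 2 lower. Periportal, urea and amino acid genes had 1 of 38 called higher and 3 lower, with Tat, tyrosine aminotransferase, at 599.6 and 702 against 237 FPKM. Conjugating enzymes and carboxylesterases had 2 of 32 called higher and 3 lower. Hepatocyte identity genes had 1 of 17 higher and 1 lower, and apolipoproteins 1 of 24 higher (Saa1) and 0 lower. There were 0 calls among ribosomal proteins (40 members), nuclear OXPHOS subunits (47), mitochondrially encoded genes (13), circadian clock genes (21), methionine and one-carbon genes (22), metallothionein, zinc and iron genes (23), erythroid genes (7) and mesothelial genes (4).

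**Figure D4:**
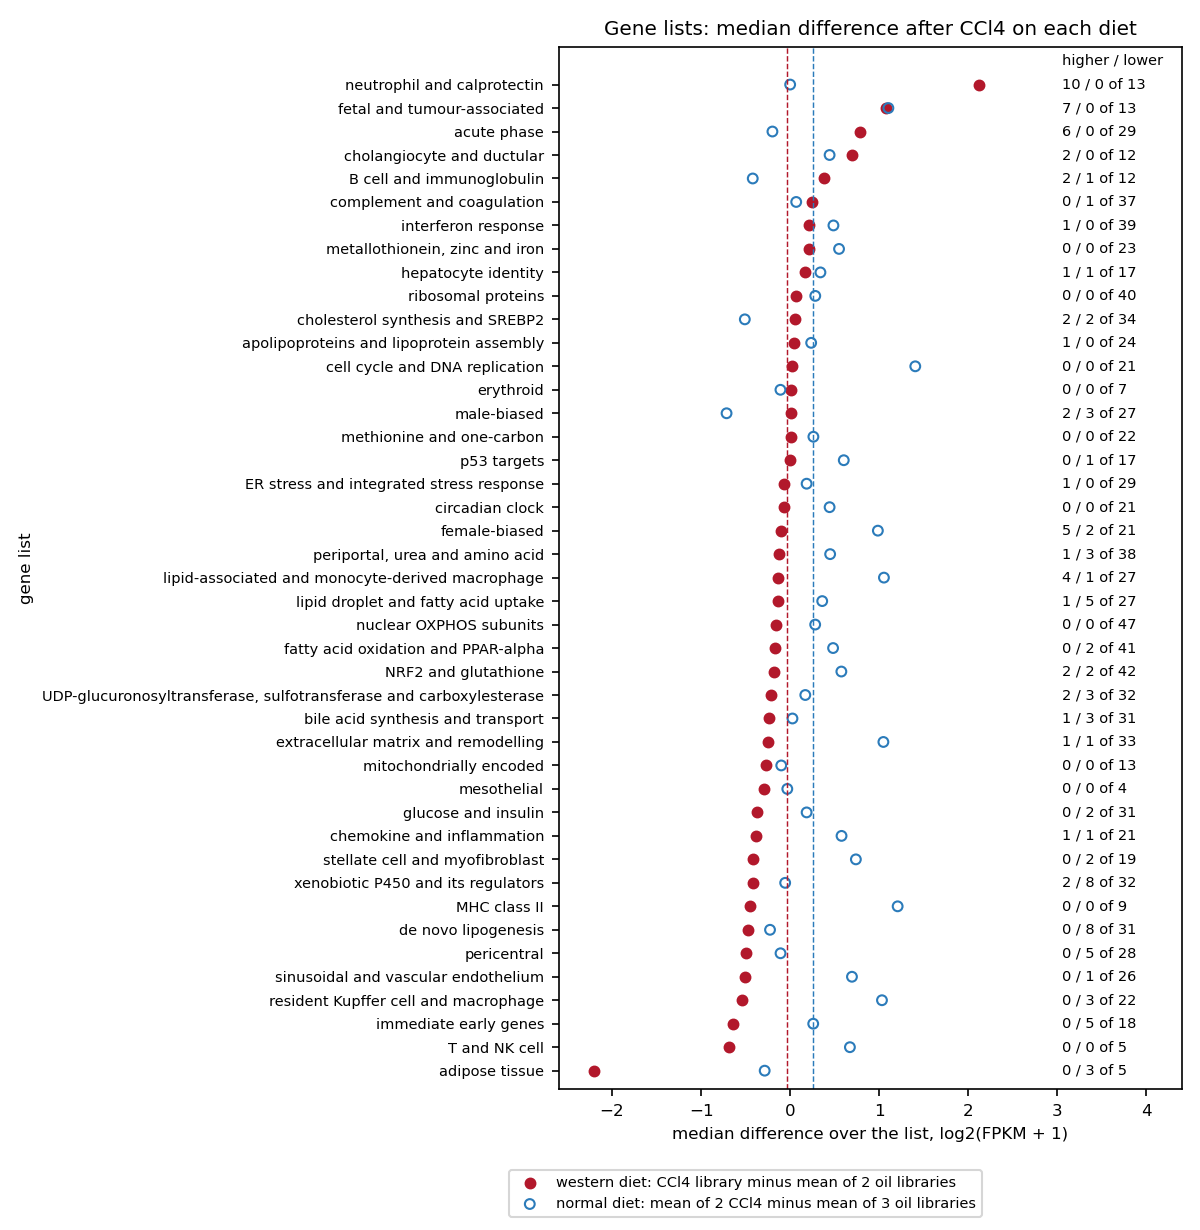
Median difference in log2(FPKM + 1) between CCl4 and oil for each gene list with at least 3 members (y axis), on the western diet (filled) and the normal diet (open), with the numbers called higher and lower on the western diet at the right. Dashed lines mark the medians of all 11580 genes, -0.03 and 0.26, and the neutrophil list lies farthest right at 2.12 on the western diet and at 0.00 on the normal diet.

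A limma fit of all 8 libraries gave a test at the price of an assumption, that the lone western diet + CCl4 library varied like those of the other groups. It tested the 11514 genes that reached 1 FPKM in any 2 libraries, 11291 of them members. With a Benjamini-Hochberg adjusted p below 0.05, 5 genes differed between western diet + CCl4 and western diet + oil (0.0434%), 3 higher (0.0261%) and 2 lower (0.0174%), while 482 had an unadjusted p below 0.05. Camp rose by 3.82 ± 0.31 (SE) on log2(FPKM + 1), with a limma adjusted p of 0.00956, and was higher than all 7 other libraries. Ltf rose by 3.02 ± 0.30 (limma adjusted p = 0.027) and Retnlg by 3.00 ± 0.32 (limma adjusted p = 0.0335). Cidea fell by 3.96 ± 0.30 (limma adjusted p = 0.00956) and Cfd fell by 4.46 ± 0.38 (limma adjusted p = 0.00956). Other genes far above or below the oil libraries did not pass, S100a9 at 3.90 ± 0.54 (limma adjusted p = 0.0946), Ngp at 3.76 ± 0.46 (0.0669), Ighg1 at 3.31 ± 0.41 (0.0669), Saa2 at 3.02 ± 1.82 (1.0) and Cyp2c37 at -3.28 ± 0.53 (0.181).

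In the 5 normal diet libraries all 5 of these genes lay near the floor, between 0 and 0.811 FPKM. Those libraries enter the error of the fit, so the SE of these genes rests in part on values listed at or near 0. These 5 calls depended on settings and on single libraries. With a pseudocount of 0.1 the adjusted p was 0.767 for Camp, 0.465 for Cfd, 0.53 for Cidea and 1.0 for Ltf and Retnlg, so none passed. Leaving out 1 library gave between 1 and 16 calls: 3 without normal diet + oil library 1, 2 or 3, 13 without normal diet + CCl4 library 1, 16 without its library 2, 3 without western diet + oil library 1 and 1 without its library 2. In the last case Cidea had an adjusted p of 0.0767. Over the settings in which each was tested, adjusted p ran from 3.45e-05 to 0.767 for Camp, from 2.68e-06 to 0.465 for Cfd, from 2.53e-05 to 0.53 for Cidea, from 0.000135 to 1.0 for Ltf and from 5.81e-05 to 1.0 for Retnlg.

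The same genes on the normal diet share no library with this comparison. There a gene was called when both CCl4 libraries lay at least 2-fold beyond all 3 oil libraries, which held for 65 of the 11580 genes on the higher side (0.561%) and 56 on the lower (0.484%). Called higher on both diets were 6 genes, 4.69% of the 128 and 9.23% of the 65, namely Eif4ebp3, Cyp3a41b, Ubd, Ly6d, Cd63 and Sgce. Lower on both were 13 genes, 11.7% of the 111 and 23.2% of the 56, namely Cyp2c37, Slc1a2, Fitm1, Glul, Cd163, Elovl3, Gm13775 and 6 Mup genes and pseudogenes. The Mup copies are near-identical, so the 6 are not separate observations. In the opposite direction stood 4 genes: Moxd1 and Mup12 were higher on the western and lower on the normal diet, and Cyp4a14 and Sprr1a the reverse. Relative to the median of all genes on the normal diet, 84 of the 111 genes called lower also lay lower there and 64 of the 128 called higher lay higher. Across all 11580 genes the differences on the 2 diets had a Pearson r of 0.11, a description across genes that are not independent. By the limma fit 164 genes differed on the normal diet (1.42%), 118 higher (1.02%) and 46 lower (0.4%). That count was 22 without normal diet + CCl4 library 1 and 1165 without library 2, and lay between 42 and 76 when any of the oil libraries of either diet was left out.

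**Figure D5:**
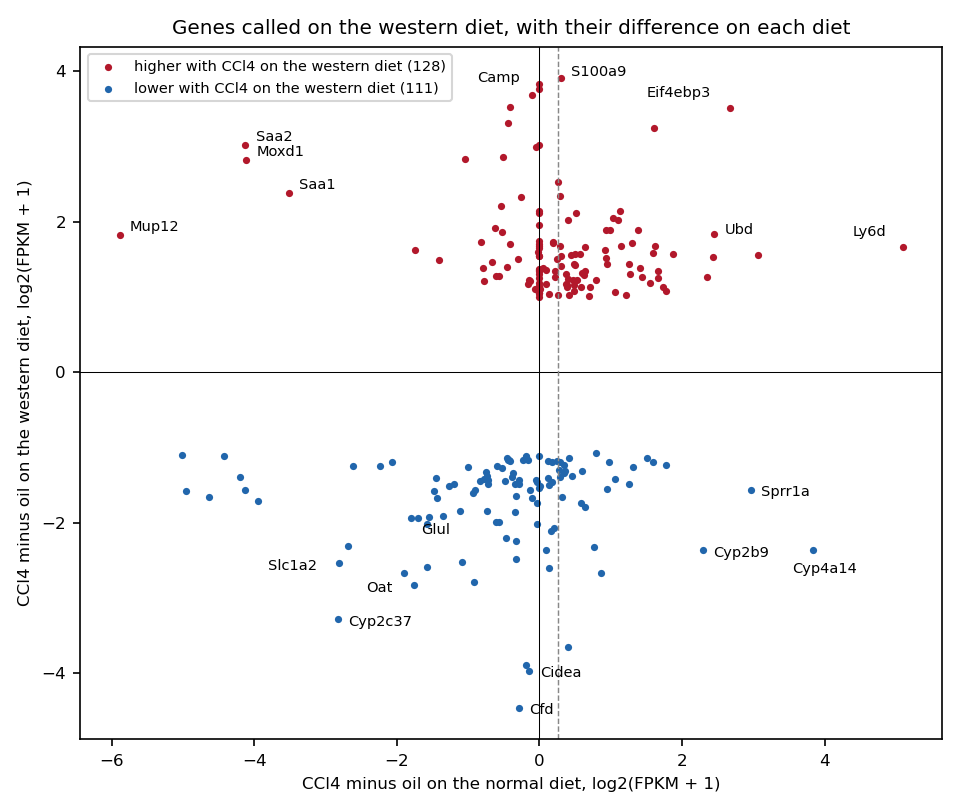
Differences in log2(FPKM + 1) between CCl4 and oil on the normal diet (x axis) and the western diet (y axis) for the 239 genes called on the western diet, red for 128 higher and blue for 111 lower. The dashed line is the normal diet median of all genes (0.26), with Glul, Slc1a2 and Cyp2c37 low on both axes, Ly6d and Eif4ebp3 high on both, and S100a9, Camp, Cidea and Cfd near 0 on the x axis.

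The interaction of diet and CCl4, which asks whether the difference after CCl4 was another on the western than on the normal diet, passed for 7 of 11514 genes (0.0608%), 4 higher (0.0347%) and 3 lower (0.0261%), and 1126 had an unadjusted p below 0.05. The median interaction of all tested genes was -0.29. Camp, at 3.82 ± 0.39 (limma adjusted p = 0.0286), Cidea, at -3.82 ± 0.37 (limma adjusted p = 0.0286), and Cfd, at -4.17 ± 0.47 (limma adjusted p = 0.0434), had normal diet differences of 0.00, -0.14 and -0.29. In the other 4 genes the normal diet difference was the larger of the 2. Slc16a5, a monocarboxylate transporter, stood at 5.30 and 5.39 against 4.73 FPKM on the western diet and at 0, 0.480 and 0 against 6.58 and 7.61 on the normal diet (-2.97 ± 0.34, limma adjusted p = 0.0434). Mup12 stood at 1045 and 1258 against 4049 FPKM on the western diet and at 5848, 11869.8 and 18403 against 173 and 191 on the normal diet (7.71 ± 0.72, limma adjusted p = 0.0286). Mup15 (4.80 ± 0.48) and Mup13 (5.81 ± 0.67) behaved likewise on the normal diet, with limma adjusted p of 0.0286 and 0.0434, and fragments of these near-identical genes can be exchanged between them. With median-of-ratios scaling 0 genes passed the interaction and 728 had an unadjusted p below 0.05, and without normal diet + CCl4 library 2 there were 168, so no interaction call held in all settings. For 3 of the 28 pericentral members the interaction was small against its error, at -0.12 ± 0.42 for Glul, 0.27 ± 0.46 for Slc1a2 and -0.45 ± 0.65 for Cyp2c37. These 3 were picked as called lower on both diets, which in itself favours a small interaction, so they do not speak for the list.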

How the data were processed

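Per the labels, 8 liver RNA libraries were made with a stranded mRNA kit (TruSeq). The authors deposited FPKM values per gene for 55487 genes. The submitters' processing notes name HISAT2 2.2.1, StringTie 2.1.0, cutadapt 3.7, FastQC 0.11.9 and GRCm38, with no step given for each. Without counts, depth and counting error are unknown. The lowest value above 0 was 0.252 to 0.318 FPKM per library, the same for long and short transcripts, so a listed 0 means below such a level. Coordinates came from GENCODE M21 (GRCm38), which held 55394 of the identifiers. For 112 symbols on several identifiers the one with the highest sum was used. Near-identical or overlapping genes can exchange fragments.

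The members, the 45 gene lists (1157 entries) and the comparisons were chosen with earlier results of these data known. Genes were called by 2-fold on log2(FPKM + 1), pseudocount 1, without a test. A secondary test used limma 3.58.1 in R 4.3.3 on log2(FPKM + 1), with 4 group means, eBayes with a trend, 4 residual and 3.93 prior degrees of freedom, two-sided p-values and Benjamini-Hochberg adjustment over 11514 genes. Its p-values rest on a spread between libraries that may be technical. Named genes were the 15 largest increases and decreases beyond the nearest oil library without predicted genes or pseudogenes, up to 5 called genes per list, up to 6 per direction that passed limma for the comparison or the interaction, and 25 fixed genes; further genes of the lists are given for context and were chosen after their values were seen. Alternatives were another pseudocount, filters, fold limits, 3 scalings, robust eBayes, a replicate block, a fit of the 2 groups and each library left out. Replicate numbers do not pair the libraries. Scripts were tested on simulated data. RefSeq promoters (GRCm38.p6) were matched by symbol, and 7 motifs were searched on both strands.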

Additional observations from a re-analysis of the deposited data

Results flagged for a closer look

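Some genes moved differently after CCl4 on the 2 diets. The limma interaction on log2(FPKM + 1), over 11514 genes, is the western diet difference after CCl4 minus that on the normal diet. It was positive for Camp (3.82), Mup12 (7.71) and Mup15 (4.80), each with adjusted p = 0.0286, and for Mup13 (5.81, adjusted p = 0.0434). It was negative for Cidea (-3.82, adjusted p = 0.0286), and for Cfd (-4.17) and Slc16a5 (-2.97), each with adjusted p = 0.0434. The sign compares differences after CCl4 and not levels on the diets. For these Mup genes and Slc16a5 the larger difference was on the normal diet, where the Mup genes fell after CCl4 and Slc16a5 rose. With median-of-ratios scaling, 0 of the 7 passed.

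Of the 239 genes called on the western diet, 27 (13 higher and 14 lower) lay the opposite way on the normal diet. For these, both normal diet CCl4 libraries lay beyond all 3 oil libraries of that diet in the opposite direction, by any amount. The share of all 11580 genes whose normal diet libraries separate by any amount was not counted. No excess over that share can therefore be read from these 27. The interaction of 1 of them, Mup12, passed the limma test. Given here are those that are on a gene list, were named for their size or passed the 2-fold limit on both diets. Each value that follows is the distance from the nearest western diet + oil library on log2(FPKM + 1). Among genes higher on the western diet, Moxd1 stood at 2.82 (limma adjusted p of the interaction 0.189), Saa2 at 2.35 (0.419), Saa1 at 1.65 (0.375), Sqle at 1.46 (0.278), Fabp5 at 1.30 (0.278), Ighg2c at 1.10 (0.391), Asns at 1.09 (0.373) and Idi1 at 1.06 (0.326). Among genes lower on the western diet, Mir6921 stood at -2.38 (0.0599), Cyp2b9 at -2.27 (0.137), Cyp4a14 at -1.86 (0.137), Sprr1a at -1.53 (0.373), Ugt1a6a at -1.46 (0.401), Abcc3 at -1.17 (0.278), Cyp3a11 at -1.04 (0.137) and Plvap at -1.02 (0.256). Fragments of Mir6921 cannot be told apart from those of Srebf1, and Ugt1a6a shares exons with its gene cluster. The distance between the groups on the normal diet ranged widely. It was 0.0 for Ugt1a6a, -0.0018 for Asns, 0.04 for Abcc3 and -0.05 for Idi1, which are close to ties. For Moxd1 it was -2.40 and for Cyp4a14 2.73.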

How the results depend on the processing

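Counts called higher and lower (128 and 111) were 214 and 223 with a pseudocount of 0.1, 312 and 338 at a fold of 1.5, 18 and 19 at a fold of 4, and 64 and 91 at an FPKM of at least 5. Without western diet + oil replicate 1 they were 222 and 284, and without replicate 2 they were 219 and 200. They were 128 and 111 without a filter, 136 and 106 with a common sum, 131 and 99 with median-of-ratios scaling and 123 and 102 without the Mup family. Of 99 named genes called, 98 stayed called with a common sum, 96 with median-of-ratios scaling, 85 at an FPKM of at least 5 and 34 at a fold of 4. With these 2 scalings 0 reversed. Another FPKM or fold limit leaves each distance as it was, so no gene could reverse there. In limma the comparison (5 genes), the interaction (7) and the normal diet comparison (164) moved as follows. No filter gave 69, 17 and 18, a mean FPKM of at least 5 gave 0, 3 and 112 (unadjusted p below 0.05 for 223 in the first), and a pseudocount of 0.1 gave 0, 3 and 148 (416 unadjusted). Median-of-ratios scaling gave 4, 0 and 91, and removal of the Mup family 4, 2 and 100. With only the 2 western diet groups in the fit, which leaves 1 residual degree of freedom, 140 genes passed. The cause of these moves was not tested. Leaving out 1 library gave 1 to 16 genes, 0 to 168 and 22 to 1165. The highest 3 came without normal diet + CCl4 replicate 2, the 0 and the 22 without its replicate 1, and the 1 without western diet + oil replicate 2. Leaving out western diet + CCl4 is not possible, as it is the only library of its group. A replicate block gave 0, 2 and 49 genes (436 unadjusted in the first), and same-numbered libraries did not deviate together (r between -0.28 and -0.01), so the numbers were not used as pairs. Depth, unknown here, limits what can be said of genes near 1 FPKM.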
